A study of Homo sapiens with 2 samples.

Results

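This section describes MYC binding at the start sites of 6 genes of polyamine metabolism, *ODC1*, *SRM*, *AMD1*, *OAZ1*, *OAZ2* and *AZIN1*. The genes were chosen by name. A peak was counted for a gene when its summit, the position of highest signal, lay within 5 kb of a stated GRCh37 start site, and a gene without such a peak was kept. By this rule 15 of the 17659 listed MYC peaks belonged to 5 of the 6 genes, and *OAZ2* had none. The peaks come from 1 ChIP-seq library, compared by the peak caller with a local background, in the neuroblastoma line SH-EP/TET21/N (TET21) at passages 10 to 15. TET21 is 1 clone of the SH-EP line with a MYCN transgene that doxycycline represses. The ChIP cells and the input cells expressed wild-type (WT) MYC and had both received doxycycline at 1 µg/mL for 7 days. There was 1 library of each kind and no group without WT-MYC. Values therefore carry no replicate error, and intervals on pileups and folds cover the counting error of the ChIP pileup only. The labels do not state whether the antibody tells ectopic MYC from endogenous MYC.

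Polyamines are small cations that bind nucleic acids and are needed for growth. Ornithine decarboxylase (ODC1) makes putrescine from ornithine, S-adenosylmethionine decarboxylase (AMD1) provides the aminopropyl donor, and spermidine synthase (SRM) joins that group to putrescine. The antizymes OAZ1 and OAZ2 bind ornithine decarboxylase and deliver it to the proteasome, and the antizyme inhibitor AZIN1 binds antizyme in its place. *ODC1* is a textbook MYC target, with a pair of E-boxes in its first intron. MYC binds DNA with its partner MAX, preferably at the E-box CACGTG.

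The promoter sequences are shown first because the genes differed in whether they held that E-box. RefSeq sequences on GRCh38.p14, a different build from the peaks, were found for 5 of the 6 genes, all but *AZIN1*, in 8 windows of 300 bases (250 before and 50 after a start). Below, the 250 bases before the start are given 5′ to 3′ along the gene's strand, with matches in capitals. The motifs searched, on both strands, were the E-box CACGTG, its variants CACGCG and also CACGAG, and the variants CATGCG and also CATGTG. The printed stretches lie on the minus strand for *ODC1* (chr2:10448328-10448577), *SRM* (chr1:11060019-11060268) and *OAZ2* (chr15:64703282-64703531), and on the plus strand for *AMD1* (chr6:110874535-110874784). The 30-base sites hold the E-boxes of a second *ODC1* window, at chr2:10448024-10448053 and chr2:10447990-10448019 on the minus strand.
ODC1 promoter: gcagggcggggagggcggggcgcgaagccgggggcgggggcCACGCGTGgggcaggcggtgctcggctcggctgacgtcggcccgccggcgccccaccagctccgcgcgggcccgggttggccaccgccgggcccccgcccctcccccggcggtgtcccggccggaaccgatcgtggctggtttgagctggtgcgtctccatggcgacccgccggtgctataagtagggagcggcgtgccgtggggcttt
ODC1 first E-box site: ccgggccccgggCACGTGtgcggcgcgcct
ODC1 second E-box site: ggcctgcggagaCACGTGgtcgccgagcgg
SRM promoter: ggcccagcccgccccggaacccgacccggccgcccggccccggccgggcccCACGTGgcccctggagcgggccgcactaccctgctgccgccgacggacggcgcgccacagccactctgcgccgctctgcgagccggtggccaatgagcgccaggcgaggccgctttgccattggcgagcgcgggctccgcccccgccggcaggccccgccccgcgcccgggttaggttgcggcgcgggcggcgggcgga
AMD1 promoter: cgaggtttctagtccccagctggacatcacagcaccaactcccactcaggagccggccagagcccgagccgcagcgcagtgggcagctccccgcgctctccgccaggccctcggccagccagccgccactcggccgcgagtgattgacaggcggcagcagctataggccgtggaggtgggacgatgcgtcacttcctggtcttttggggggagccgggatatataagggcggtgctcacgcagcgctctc
OAZ2 promoter: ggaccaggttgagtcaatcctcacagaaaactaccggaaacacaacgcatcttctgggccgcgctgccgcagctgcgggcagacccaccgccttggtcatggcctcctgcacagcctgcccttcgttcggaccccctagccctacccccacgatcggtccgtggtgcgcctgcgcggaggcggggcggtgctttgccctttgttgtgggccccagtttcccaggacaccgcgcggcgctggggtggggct

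CACGTG was present in a promoter window of 2 of the 5 genes, *ODC1* and *SRM*. The share over protein-coding genes with a RefSeq promoter was 10.9% (1727 of 15842), and over their single windows 8.34%. *SRM* held 1 copy, with its first base 199 bases before the RefSeq start. *ODC1* held 2 copies in the window of its second RefSeq start, which lies 315 bases downstream of the first. Windows with 2 or more copies made up 0.851% of the protein-coding promoters. The *ODC1* copies were separated by 28 bases and lay 286 and 320 bases downstream of the first start. The first *ODC1* window had no CACGTG, but held the run CACGCGTG, in which CACGCG is read on both strands with an overlap (14.2% of protein-coding promoters hold CACGCG). *OAZ1* held CTCGTG, the reverse complement of CACGAG (7.37% of protein-coding promoters), 47 bases before its start. None of the 5 motifs was in the 3 windows of *AMD1* or the window of *OAZ2*, while 37.8% of protein-coding promoters held at least 1. The *AMD1* windows belong to starts at positions 110874785, 110874784 and, far upstream, 110814617 of chromosome 6 on GRCh38.p14. At least 1 of the 5 motifs was thus in a window of 3 of the 5 genes, against 44.8% of protein-coding genes. These windows were rich in G and C: 82% in *SRM*, 79% and 80.7% in *ODC1*, 73% in *OAZ1*, 69.7% in *OAZ2* and 65.3% to 68.3% in *AMD1*, against a median of 62.3% in protein-coding promoters. The motifs were not placed against the peaks, because positions were not converted between the builds.

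MYC peaks lay at the starts of *ODC1*, *SRM*, *AMD1*, *OAZ1* and *AZIN1*. On GRCh37, the build of all peak coordinates here, the starts are at position 10588630 of chromosome 2 for *ODC1*, 11120091 of chromosome 1 for *SRM*, 111195973 of chromosome 6 for *AMD1*, 2269519 of chromosome 19 for *OAZ1* and 103876412 of chromosome 8 for *AZIN1*. Each had a summit within 1 kb of its start, and 11 of the 15 peaks were that close. Positions within 5 kb of any summit made up 4.63% of the bases that the peaks of chromosomes 1 to 22 and X span, and positions within 1 kb 1.05%. How often a gene start in general has a peak was not determined here, because start sites of all genes on GRCh37 were not used. The count of 5 in 6 can therefore be read only against genomic positions, not against other promoters. The start site itself was inside a peak in *SRM*, *AMD1*, *OAZ1* and *AZIN1*, and 5 bp from the edge of one in *ODC1*. The farthest counted summit was 2796 bp from its start, at *OAZ1*, and the nearest summit beyond the 5 kb limit was 24.3 kb away, at *ODC1*. No summit lay between these distances at any of the 6 genes.

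**Figure D1:**
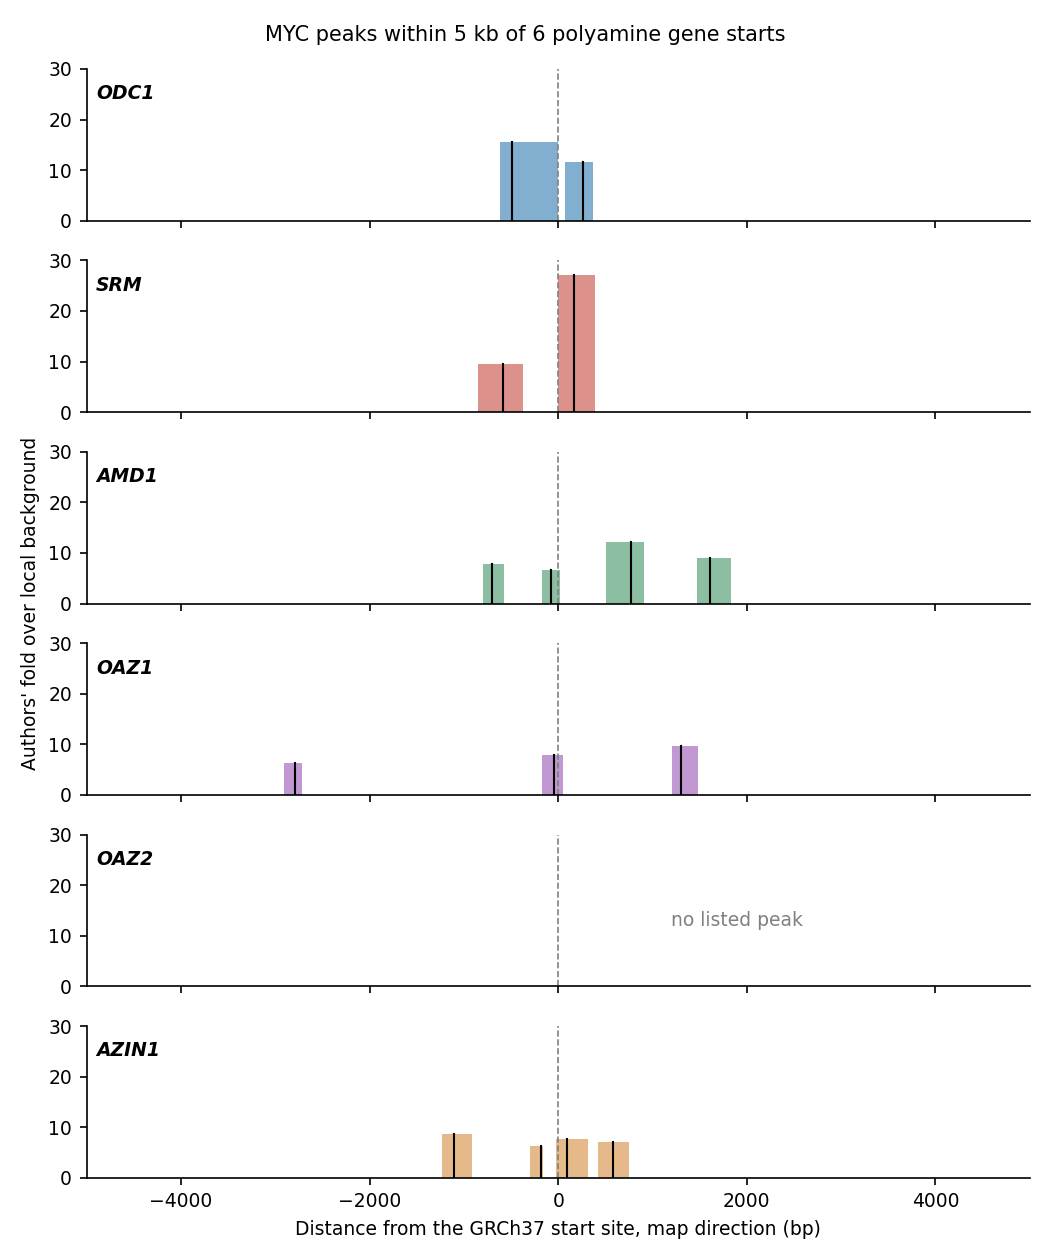
MYC peaks within 5 kb of each start site (horizontal axis, distance in bp along the map, with higher coordinates to the right; *ODC1*, *SRM* and *OAZ2* are transcribed leftwards). Each bar spans 1 peak with the authors' fold as its height, and the black line marks the summit: the tallest bar, 27.2, belongs to *SRM*, and the *OAZ2* panel is empty.

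The deposited fold is the authors' enrichment at a peak over its local background. Its median over the 15 peaks was 8.62, with a lowest value of 6.24 and a highest of 27.2, against a median of 6.40 and an upper quartile of 8.38 over the list. Of the 15, 13 were above the list's median and 8 above its upper quartile. Of the 15, 4 (26.7%) had a fold of at least 10, 2 at *ODC1* and 1 each at *SRM* and *AMD1*, against 15.4% of the list. By −log10 p, 8 of the 15 were at or above the upper quartile of the list, as were 25.1% of all peaks. The median width was 320 bp, against 226 bp over the list. The pileup, a count of the ChIP fragments that cover the summit, was recovered from the fold and p-value. It had a median of 17 fragments at the 15 peaks and of 13 over the list. The local background under these peaks ran from 0.750 to 1.98 fragments, with a median of 0.956 against 1.12 over the list. The commonest background in the list was 1.32 fragments, and 3 of the 15 peaks had it, the best at *SRM*, *ODC1* and *AZIN1*. Backgrounds this low carry an error of their own, which was not estimated and is not in the intervals on fold. With 15 peaks at 5 genes these medians are a description and were not tested. The list is not limited to gene starts, and peaks at other gene starts were not set apart for comparison.

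Among the biosynthetic enzymes, the strongest peak was at *SRM*. It spanned chr1:11120085-11120481 and its summit lay 169 bp upstream of the start. There, 62 fragments (95% Poisson interval 47.5 to 79.5) stood over a background of 1.32, a fold of 27.2 (20.9 to 34.7 from the counting error of the pileup) with a −log10 q of 74.4. It ranked 60 in the list by fold, 54 by pileup and 49 by −log10 p, and 99.7% of peaks had a lower fold. The other *SRM* peak, at chr1:11119239-11119712, lay 586 bp downstream. Its pileup was 16 (9.15 to 26.0) over 0.778 fragments and its fold 9.56, so the pair differed in fold by 2.84 times and their pileup intervals did not overlap. No other gene of the 6 had so uneven a set of peaks, since the ratio of best to weakest fold was 1.86 at *AMD1*, 1.56 at *OAZ1*, 1.37 at *AZIN1* and 1.33 at *ODC1*.

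At *ODC1*, the gene of the first step, the peaks stood on both sides of the start. The stronger, at chr2:10588013-10588625, had its summit 488 bp downstream, with 35 fragments (24.4 to 48.7) over a background of 1.32 and a fold of 15.5 (10.9 to 21.4). It was the widest of the 15 peaks, at 613 bp, and 96.1% of listed peaks had a lower fold. The weaker, at chr2:10588698-10588999, had its summit 264 bp upstream, with 20 fragments (12.2 to 30.9) over 0.797 and a fold of 11.7 (7.36 to 17.7). Their pileup intervals overlapped. The peaks were 72 bp apart, the start lay in the gap, and the summits were 752 bp apart. The stronger peak and both CACGTG copies shown above lie downstream of an *ODC1* start, but the RefSeq start and the start used for the peaks were not matched across builds.

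The third enzyme gene, *AMD1*, had 4 peaks in one stretch of 2627 bp, chr6:111195174-111197800. Their summits lay 697 bp and 75 bp upstream and 776 bp and 1610 bp downstream of the start. In that order the pileups were 17, 16, 21 and 16 fragments and the folds 7.79, 6.56, 12.2 and 8.99. The strongest was thus 776 bp into the gene (chr6:111196477-111196881, 7.75 to 18.3), and the peak over the start itself was the weakest, although all 4 pileup intervals overlapped (9.15 to 32.1 in all). The background was highest, 1.59 fragments, under the peak over the start and lowest, 0.806, under the strongest peak. The fold of these 2 peaks differed by 1.86 times, against 21 and 16 fragments. The *AMD1* promoter windows, without any of the 5 motifs, end 50 bases after a start and so leave most of this stretch unread.

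*OAZ1* and *OAZ2* encode proteins of the same function, and their starts differed in listed peaks. *OAZ1* had 3, at chr19:2266614-2266796, chr19:2269349-2269564 and chr19:2270724-2270998, with summits 2796 bp and 49 bp upstream and 1307 bp downstream. Their pileups were 14, 14 and 18 fragments, with intervals from 7.65 to 28.4 in all, and their folds were 6.24, 7.94 and 9.71. None reached a fold of 10, and the best was above 82.9% of the list. The 3 peaks were over 1 kb apart from each other, whereas the peaks of each other bound gene joined into 1 region at that distance.

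No peak was listed within 100 kb of the *OAZ2* start at position 64995462 of chromosome 15. The nearest summits were 122.6 kb away on one side (chr15:65117944-65118189, fold 5.60) and 315.5 kb on the other (chr15:64679858-64680006, fold 4.36). Such a distance is common among genomic positions, since 52.5% of the bases spanned by peaks were as far from a summit or farther. How often a gene start lies that far from a summit was not determined. Peak numbers in the list ran on without a gap across the *OAZ2* start, so none of the 20 numbers missing from the list falls there. The lowest counts in the list limit what could have been listed. Across the list no pileup below 5 fragments was called at the lowest common background of 0.683, none below 7 at backgrounds within 5% of the 1.32 fragments of the nearer flanking peak, and none below 9 near the 1.98 of the farther one. The background at *OAZ2* itself is not in the list, and a signal below such counts may have gone unlisted. Whether the depth, the caller's threshold or the filter of the list set these counts was not tested. The weakest of the 15 peaks at the other genes rested on 10 fragments.

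*AZIN1*, whose product releases ornithine decarboxylase from antizyme, had 4 peaks in 1984 bp, chr8:103875177-103877160. The summits lay 1104 bp and 187 bp from the start towards lower coordinates and 95 bp and 581 bp towards higher ones. In that order the pileups were 19, 10, 14 and 20 fragments, with intervals that all overlapped (4.80 to 30.9 in all), and the folds were 8.62, 6.29, 7.74 and 7.05. Its best fold, above 76.3% of the list, was the lowest best fold of the 5 bound genes. The peak with 20 fragments had a lower fold than that with 14, over backgrounds of 1.98 (the highest of the 15) and 0.937 fragments. The peak with 10 fragments was 142 bp wide, the narrowest width in the list, which 9.21% of all peaks share. The gaps from it to its neighbours were 613 bp and 134 bp, and that between the last pair was 103 bp. Whether peaks so close are separate binding sites was not tested.

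**Figure D2:**
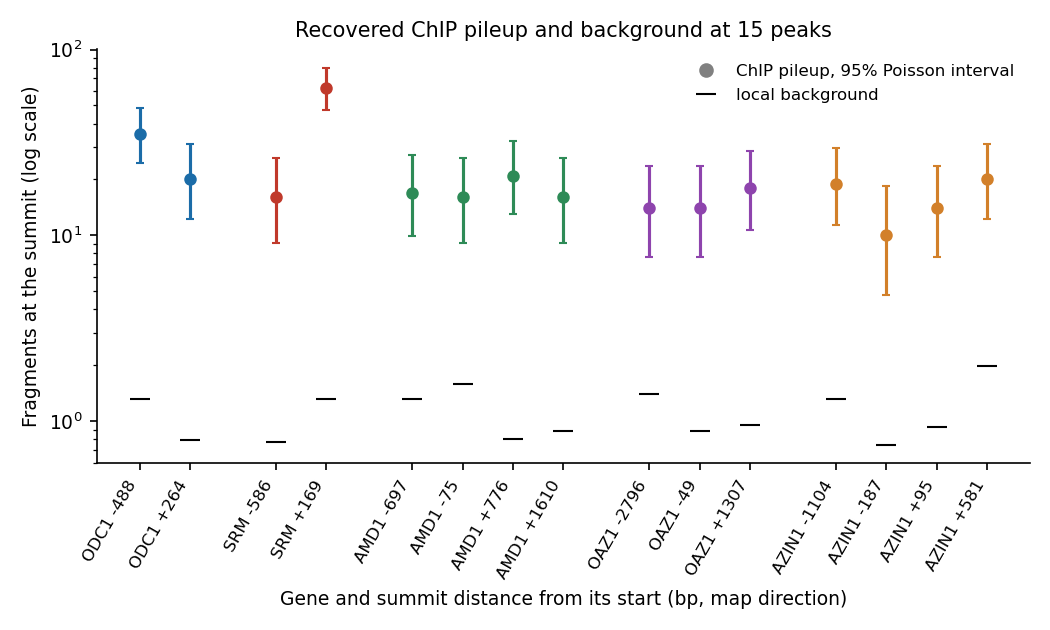
ChIP fragments at the summit of each of the 15 peaks (points, with 95% Poisson intervals) and the local background (short bars), on a log scale, by gene and summit distance from the start in map direction. The *SRM* peak at 62 fragments and the *ODC1* peak at 35 stand highest, and the other 13 lie between 10 and 21, while every background lies between 0.750 and 1.98.

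Ordered by best fold, the genes ran from *SRM* (27.2) through *ODC1* (15.5), *AMD1* (12.2) and *OAZ1* (9.71) to *AZIN1* (8.62). By best fold the 3 enzymes of synthesis thus stood above the 2 bound regulators of ornithine decarboxylase. However, the fold interval of *AMD1* (7.75 to 18.3) overlapped those of *OAZ1* (5.97 to 15.1) and *AZIN1* (5.36 to 13.2). Neighbours in this order had overlapping pileup intervals at their best peaks: 47.5 to 79.5 for *SRM*, 24.4 to 48.7 for *ODC1*, 13.0 to 32.1 for *AMD1*, 10.7 to 28.4 for *OAZ1* and 11.4 to 29.7 for *AZIN1*. The *SRM* interval did not overlap those of *AMD1*, *OAZ1* and *AZIN1*. By pileup, *AZIN1* (20 at its highest) came before *OAZ1* (18), so the order of these genes depends on the measure. The genes with the highest best folds had the fewest peaks: *SRM* and *ODC1* had 2 each, *OAZ1* had 3, and *AMD1* and *AZIN1* had 4 each.

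**Figure D3:**
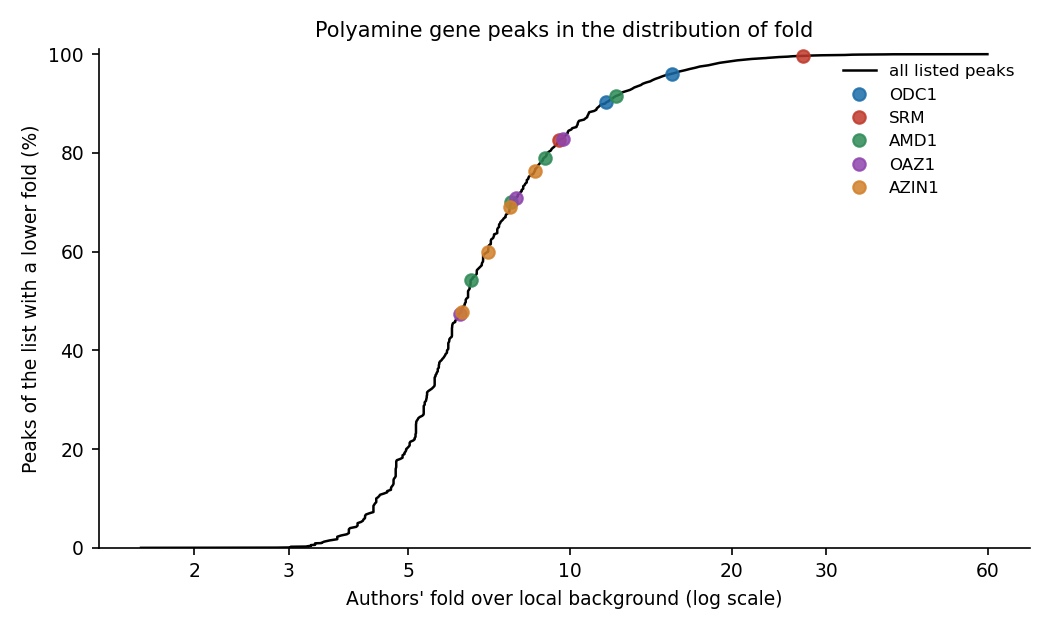
Share of all 17659 peaks with a lower fold (vertical axis, %) against the authors' fold (log scale). The line is the whole list and the points are the 15 peaks: the best peak of each gene lies at 76.3% (*AZIN1*) to 99.7% (*SRM*), and the lowest points, at *OAZ1* and *AZIN1*, lie at 47.4% and 47.8%. A best peak is the highest of several at its gene, while the list is of single peaks, so its share is raised by that choice.

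Peaks were crowded at these starts. Each of the 5 bound genes had 2 or more peaks, and joining peaks up to 1 kb apart left 7 regions, of which 4 held 2 or more peaks, against 18% of the 14488 regions in the list, which are not limited to gene starts. The *AMD1* and *AZIN1* stretches, with 4 peaks each, belong to the 0.525% of regions (76) that held 4 or more. The best folds of these stretches, 12.2 and 8.62, lay between the quartiles of all 59 regions of exactly 4 peaks (7.76 and 12.3, median 8.91). The *SRM* and *ODC1* regions, with 2 peaks each, had best folds of 27.2 and 15.5, above the upper quartile of 10.6 for the 2153 regions of 2 peaks (median 7.79).

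Away from the stated starts, between 5 and 100 kb there was 1 further peak at *ODC1* (24.3 kb, fold 5.31), 3 at *SRM* (folds 6.12 to 7.72), 2 at *AMD1* (6.04 and 11.8), 5 at *OAZ1* (3.88 to 7.53) and 4 at *AZIN1* (5.86 to 17.5). By fold, the highest peak within 100 kb was one at the gene's start at *ODC1*, *SRM*, *AMD1* and *OAZ1*, although the values at *AMD1* were close (12.2 at the start and 11.8 at 83.8 kb). By pileup this held at *ODC1* and *SRM*, whereas the peak 83.8 kb from *AMD1* had 24 fragments against at most 21 at its start, and the peak 59.0 kb from *OAZ1* had 27 against at most 18. At *AZIN1* it held by neither measure: a group of 4 peaks lay 53.3 to 57.8 kb towards lower coordinates, and its strongest member (chr8:103818456-103819330) had 32 fragments and a fold of 17.5, above the 8.62 at the *AZIN1* start. The *AMD1* peak of fold 6.04 lay 59.3 kb upstream of the stated start, and *AMD1* also has a RefSeq start far upstream. Whether that peak lies at this other start was not determined, because positions were not converted between the builds. These outlying peaks were not assigned to genes.

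**Figure D4:**
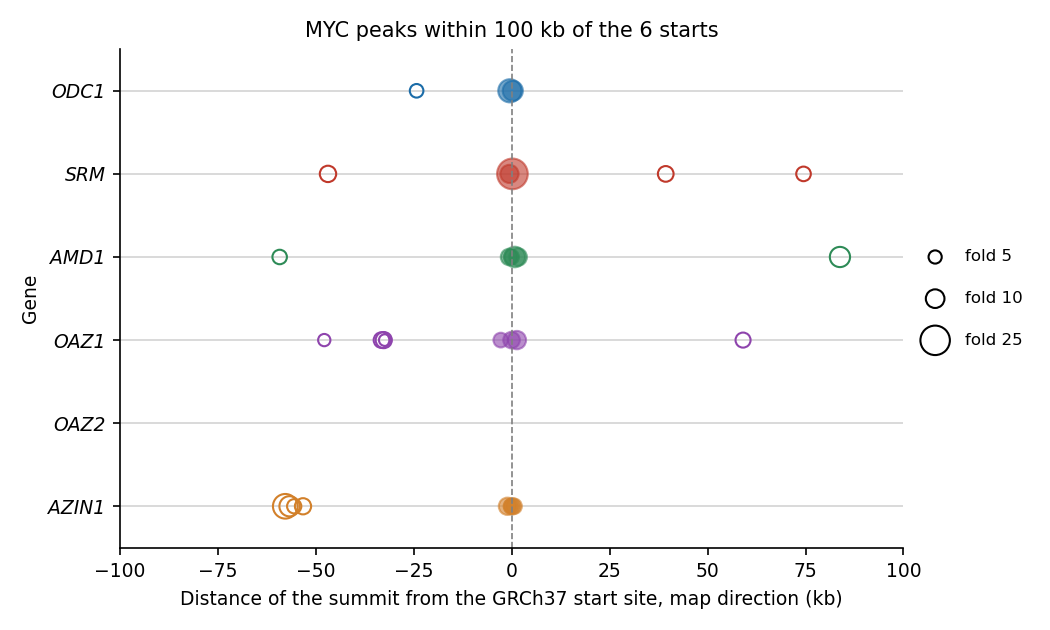
Summits within 100 kb of the 6 start sites (horizontal axis, kb in map direction), with circle area in proportion to the fold. Filled circles are the 15 peaks within 5 kb and open circles the 15 others, which include the group at *AZIN1* near 55 kb, and the *OAZ2* line is empty.

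The other genes of polyamine metabolism could be described only by promoter sequence. Of 30 genes listed for ornithine supply, spermine synthesis, catabolism, transport, methionine salvage, hypusine formation and related steps, 24 had a RefSeq promoter, and 5 of these (20.8%) held CACGTG in one, against 10.9% of protein-coding genes. *MRI1*, *ENOPH1* and *ADI1* encode enzymes of the methionine salvage pathway, which recycles the by-product of spermidine and spermine synthesis. *DOHH* encodes the hydroxylase that completes hypusine, a residue made from spermidine, and *EIF5A2* encodes a translation factor that carries it. *ENOPH1* and *EIF5A2* held 2 copies and the other 3 genes 1. The difference between 20.8% and 10.9% was not tested. With any of the 5 motifs counted, 11 of the 24 genes (45.8%) held one, close to the 44.8% of protein-coding genes. MYC peaks at these genes were not analysed here.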

How the data were processed

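Chromatin was fixed with 1% formaldehyde for 10 min and precipitated with 2 µg of anti-MYC antibody, per the labels' protocols. Per the submitters' processing notes, GRCh37, STAR 2.5.2a, SAMtools 1.3, Picard 2.7.1, MACS2 2.1.0 and bedtools were used, with roles not given in the sources used here. The authors' deposited list holds 17659 peaks in narrowPeak layout, with a score, a fold (ratio), a −log10 p, a −log10 q and a summit offset per peak. The file name calls the list filtered, by criteria not given in the sources used here. Peaks were called on 1 ChIP library. The depth is not given.

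Pileups were recovered with the MACS2 definitions, fold = (pileup + 1) / (background + 1) and p = the upper Poisson tail beyond the pileup. Whole pileups from 3 to 699 were tried, and every peak matched within 0.001 (largest miss 0.000221). The procedure was tested on simulated data made with these same definitions. Such a test checks the inversion only, not whether the deposited values follow the definitions. Pileups have exact Poisson 95% intervals, and intervals on fold hold the background fixed. The lowest common background is the lowest shared by at least 100 peaks within 0.0003. Without molecular identifiers, fragments may be copies of 1 molecule, so these intervals cover counting error only.

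Distances are from the start sites stated in the selection rule, and coordinates are 1-based. Upstream and downstream follow the RefSeq strand. Every member and each of its peaks is named, and of the other pathway genes those with CACGTG in a promoter. Members and lists were chosen with earlier results of these data known. With 1 library nothing was tested across samples. Python 3.11.15, pandas 2.3.3, scipy 1.17.1 and matplotlib 3.10.9 were used.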

Additional observations from a re-analysis of the deposited data

How the results depend on the processing

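In 20 of 34 alternatives the result stayed inside its interval, or for counts within a factor of 1.5, and in 14 it did not. For shares of the list this was a binomial (Wilson) interval, which treats the whole list as a sample of peaks. A small shift in rank can fall outside it, so the tally is a description and does not measure error. The 5 bound genes were the same in windows of 1, 2 and 10 kb, by overlap of the peak interval, and with peaks at or above the list's median or upper quartile of −log10 p. For the 10 kb window and the overlap this was fixed in advance, since the nearest further summit was 24.3 kb from a start. The 15 peaks became 8 at or above that upper quartile (25.1% of the list) and 7 when peaks up to 1 kb apart were joined, since fewer peaks are then counted. The median fold was 12.2 when only the best peak of each gene was used, outside the interval of the median over 15 peaks (7.05 to 11.7). That interval was read from the 15 folds in order and treats the peaks as independent. They lie at 5 genes in 1 library, so it does not measure error between genes or libraries. The share of peaks below the best peak of *ODC1* was 96.5% by pileup and 96.5% by −log10 p. For *AMD1* it was 83.2% by pileup, 89.2% by −log10 p and 92.2% within its chromosome. For *OAZ1* it was 75.0%, 81.6% and 80.7%, and for *AZIN1* 78.1%, 77.9% and 79.8%, in the same order, so *OAZ1* was below *AZIN1* by pileup. The cause was not tested. With any of the 5 motifs in place of CACGTG the count of genes was 3 in place of 2. No paired analysis was possible because there was 1 ChIP library and no test, and no replicate could be left out. The lowest pileup called was 5 at the lowest common background of 0.683 fragments, and 7 near a background of 1.32.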
